A study of Mus musculus with 22 samples.

Results

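The genes described here are 9 mouse genes linked to the stay of T cells in tissue: Itgae, Itga1, Cdh1, Cd69, Rgs1, Rgs2, Cxcr6, Zfp683 and P2rx7. They were chosen by symbol, and 8 of the 9 had a row among the 24091 genes of the count table; Zfp683, which encodes the transcription factor Hobit, had no row under that symbol and was not analysed here. All 8 passed the filter on low counts that left 12841 genes for testing. The study sorted wild-type C57BL/6 donor T cells from lethally irradiated wild-type BALB/c recipients of hematopoietic cell transplants (C57BL/6 spleen and bone marrow cells) on day 7, after injections of a control IgG or an anti-IL-2 antibody every other day between day 0 and day 6. CD4+ and CD8+ T cells were taken from the spleen and from the colon, which the tissue field calls gut. This gave 8 groups: 3 libraries each for spleen CD4 cells with IgG, spleen CD4 cells with anti-IL-2, spleen CD8 cells with IgG and spleen CD8 cells with anti-IL-2, 3 each for gut CD4 and gut CD8 cells with anti-IL-2, and 2 each for gut CD4 and gut CD8 cells with IgG, 22 libraries in all. All 8 groups thus share the irradiation, the transplant and the wild-type genotypes of donor and recipient.

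T cells that settle in a barrier tissue leave the blood through the vessel wall, bind to the matrix or the epithelium with integrins, and stop answering the sphingosine-1-phosphate gradient that would carry them back to lymph. CD69 pulls the receptor for that lipid, S1PR1, off the cell surface, integrin αEβ7 (CD103, whose α chain is Itgae) binds E-cadherin on epithelial cells, integrin α1β1 binds collagen, and RGS proteins shorten the signals of chemokine receptors. TGF-beta, which is abundant in the gut, is known to induce Itgae, and Hobit with Blimp-1 (Prdm1) represses the genes of tissue exit.

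Levels are given as CPM (counts scaled to a common library total) with library sizes adjusted by TMM, edgeR's trimmed mean of M values. Where several values stand for 1 group, they follow the batch field in the order 181201, 181212, 190306, and the gut IgG groups have libraries from the last 2 of these batches only. Tissues were compared within 5 pairs of libraries per cell type that share batch and treatment (2 with IgG, 3 with anti-IL-2). Log2 fold changes, standard errors (SE) and adjusted p-values come from edgeR's quasi-likelihood test over all 12841 genes with Benjamini-Hochberg adjustment, and a gene is said to pass at an adjusted p below 0.05. The labels do not say which libraries come from separate animals, nor whether animals were pooled, so the p-values measure the spread between these libraries.

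Libraries held 14628806 to 24518362 counts. Cd4 was at 1802 to 2610 CPM in the CD4 libraries and at most 7.21 CPM in the CD8 libraries, and Cd8a and Cd8b1 together were at 1738 to 3244 CPM in the CD8 libraries and at most 15.5 CPM in the CD4 libraries, so the sorted populations carried the markers of their labels. Labels and data raise 2 points that bear on the comparisons. First, in 5 CD8 libraries with IgG (3 spleen, 2 gut by the tissue and source fields) the description names the other organ. The tissue field was followed here, and the results with anti-IL-2 pairs alone, which leave these libraries out, are given beside the tissue comparison. Second, Il2ra, the IL-2 receptor α chain that IL-2 signalling induces, was lower in the libraries labelled anti-IL-2 than in those labelled IgG in batches 181201 and 181212, with log2 differences of -2.05 to -1.11. In batch 190306 the libraries labelled anti-IL-2 had the higher level in all 4 populations, with log2 differences of 1.56 to 1.83. Treatment results are therefore given with and without that batch, under the labels as deposited, and gut and spleen are compared within 1 batch and 1 labelled treatment.

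RefSeq promoter sequences (GRCm38.p6) were found for 4 of the 9 genes, Rgs2, P2rx7 (2 start sites), Cxcr6 and Itga1. The stretch of 250 bases before the start site is shown for 4 of the 5 sites, which leaves out the second start site of P2rx7. These 4 genes were all higher in gut cells, as were the other measured genes. They differed in size of change and in the genes they followed. Capitals mark matches, on either strand, to 4 motifs that were searched: AP-1 (TGANTCA), CRE (TGACGTCA), STAT (TTCNNNGAA) and RUNX (TGTGGT), which do not share letters with one another at any match shown. Of 32851 mouse promoters of this length, 6.75% held the AP-1 letters, 1.55% the CRE letters, 7.02% the STAT letters and 14% the RUNX letters.
P2rx7 (chr5:122643677-122643926, plus strand): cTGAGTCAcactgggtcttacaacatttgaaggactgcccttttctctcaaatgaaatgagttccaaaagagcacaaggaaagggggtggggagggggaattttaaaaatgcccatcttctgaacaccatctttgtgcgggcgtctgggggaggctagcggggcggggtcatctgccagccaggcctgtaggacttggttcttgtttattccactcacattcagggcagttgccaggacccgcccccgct
Cxcr6 (chr9:123806227-123806476, plus strand): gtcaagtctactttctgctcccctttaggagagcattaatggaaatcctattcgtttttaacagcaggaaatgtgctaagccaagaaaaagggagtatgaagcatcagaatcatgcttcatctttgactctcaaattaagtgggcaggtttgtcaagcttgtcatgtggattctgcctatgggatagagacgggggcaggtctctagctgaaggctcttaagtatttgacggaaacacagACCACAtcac
Rgs2 (chr1:144004150-144004399, minus strand): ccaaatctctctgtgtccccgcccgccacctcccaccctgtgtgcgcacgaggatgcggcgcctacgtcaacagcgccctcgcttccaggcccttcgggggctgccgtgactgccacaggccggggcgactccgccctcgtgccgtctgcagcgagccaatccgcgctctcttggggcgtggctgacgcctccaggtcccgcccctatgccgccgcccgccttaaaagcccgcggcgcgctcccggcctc
Itga1 (chr13:115101965-115102214, minus strand): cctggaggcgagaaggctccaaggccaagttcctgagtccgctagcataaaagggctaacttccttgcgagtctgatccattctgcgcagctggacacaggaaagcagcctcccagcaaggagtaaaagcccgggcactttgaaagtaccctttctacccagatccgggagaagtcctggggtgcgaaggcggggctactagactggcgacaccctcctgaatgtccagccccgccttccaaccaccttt

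The P2rx7 stretch held 1 AP-1 match at its far end and the Cxcr6 stretch held 1 RUNX match close to the start site, read on the other strand. Rgs2, Itga1 and the second P2rx7 start site held none of the 4 motifs in this window.

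All 8 measured genes were higher in gut than in spleen cells, in CD4 and in CD8 cells alike. In CD4 cells 8 of 8 passed, where 23.9% of all tested genes were called higher in gut, with a median log2 fold change of 2.16 against 0.01 over all genes. In CD8 cells 8 of 8 passed, where 22.3% of all genes were called higher, with a median of 2.96 against -0.0027 over all genes. With the anti-IL-2 pairs alone, which omit the libraries with conflicting organ names, 8 of 8 again passed in each cell type. There 2008 of 12290 genes were called higher in CD4 and 1759 in CD8 cells. With the IgG pairs alone 6 of 8 passed in each cell type, where 815 and 845 of 12167 genes were called higher. Without the pairing 6 passed in CD4 and 7 in CD8 cells, where 1426 and 1413 of 12841 genes were called higher. A higher level in a bulk library can come from more RNA per cell or from more cells that express the gene, and these cannot be told apart. Every gut library lay above every spleen library for 5 of 8 genes in CD4 cells, where 6.53% of all genes did so, and for 6 of 8 in CD8 cells, where 7.03% did so. The plot of CPM by library shows these separations, and the genes are taken in turn below by role.

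**Figure D1:**
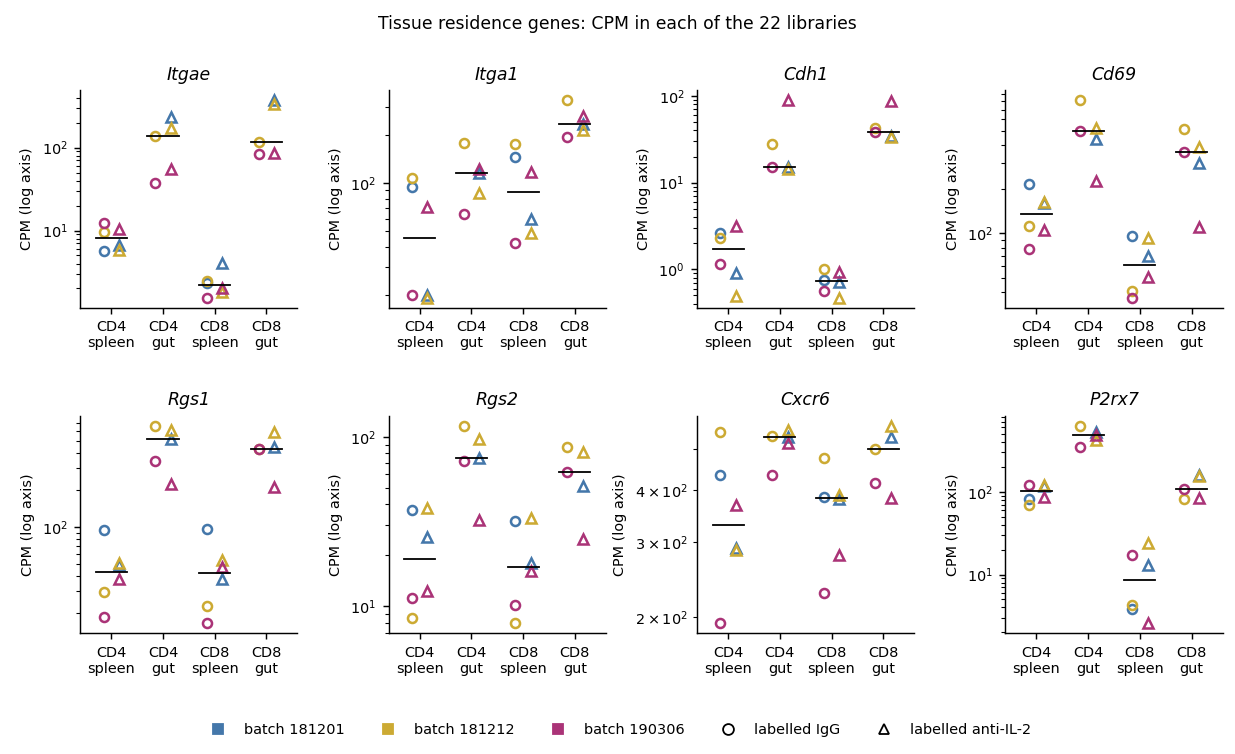
CPM (log axis) of the 8 measured genes in each of the 22 libraries by cell type and tissue, with colour for the batch, circles for libraries labelled IgG, triangles for libraries labelled anti-IL-2 and a line at the median of each population. The gut libraries of Itgae, Cdh1, Cd69, Rgs1 and P2rx7 lie above all spleen libraries of the same cell type, while Rgs2 and Cxcr6 overlap in both.

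Itgae encodes the α chain of CD103, the receptor for E-cadherin, and lies on chromosome 11 (GRCm38, 73090583 to 73147446, plus strand). In spleen CD4 cells it was at 5.67, 9.69 and 12.4 CPM with IgG and at 6.61, 5.89 and 10.4 CPM with anti-IL-2. In gut CD4 cells it was at 138 and 37.1 CPM with IgG and at 236, 173 and 54.4 CPM with anti-IL-2. The gut libraries thus all lay above the spleen libraries, and both gut libraries of batch 190306 were the lowest of their tissue. In spleen CD8 cells Itgae was low, at 2.36, 2.49 and 1.55 CPM with IgG and at 4.02, 1.82 and 2 CPM with anti-IL-2. In gut CD8 cells it reached 118 and 82.6 CPM with IgG and 370.4, 331 and 85.3 CPM with anti-IL-2. No library of one tissue came near those of the other, and the libraries with anti-IL-2 of the first 2 batches were the highest. Gut minus spleen gave a log2 fold change of 3.51 (SE 0.52, adjusted p = 0.000656) in CD4 cells by edgeR's quasi-likelihood test. In CD8 cells it gave a log2 fold change of 6.2 (SE 0.61, adjusted p = 7.18e-05) by the same test. The 5 pairs spanned 1.57 to 5.13 in CD4 cells and 5.34 to 7.42 in CD8 cells, and both CD4 pairs of batch 190306 held the smallest differences. Without batch 190306 the fitted CD4 value was 4.59.

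Cdh1 encodes E-cadherin itself, the ligand of CD103, which is best known as the adhesion molecule of epithelial cells and is also expressed by some T cells and Langerhans cells. It lies on chromosome 8 (106603351 to 106670246, plus strand). Spleen CD4 libraries held 2.63, 2.31 and 1.14 CPM with IgG and 0.916, 0.491 and 3.2 CPM with anti-IL-2. Gut CD4 libraries held 28.2 and 15.4 CPM with IgG and 15, 14.5 and 89 CPM with anti-IL-2. The gut library labelled anti-IL-2 in batch 190306 stood far above the other gut CD4 libraries. Spleen CD8 libraries held 0.75, 0.997 and 0.57 CPM with IgG and 0.722, 0.47 and 0.931 CPM with anti-IL-2, from 8 to 20 counts each. Gut CD8 libraries held 42.3 and 38 CPM with IgG and 34.8, 33.5 and 86.8 CPM with anti-IL-2. Again the anti-IL-2 library of batch 190306 was the highest, and no gut library came near a spleen library in either cell type. The log2 fold change was 4.22 in CD4 cells (SE 0.18, edgeR adjusted p = 3.55e-08) and 5.97 in CD8 cells (SE 0.20, edgeR adjusted p = 4.22e-09), with 5 of 5 pairs higher in gut in each.

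Because Cdh1 is also an epithelial gene, a list of 13 epithelial markers was read beside it. Their summed level was 18.2 to 24.7 CPM in spleen CD4 and 22.6 to 28.4 CPM in spleen CD8 libraries, 25.7 to 85.3 CPM in gut CD4 and 34.5 to 166 CPM in gut CD8 libraries. The maxima in gut CD8 libraries were 46.1 CPM for Lgals4, 26 for Muc2, 16.4 for Epcam, 16.2 for Vil1, 14.4 for Cdh17, 14.3 for Krt19, 10.9 for Krt8 and 8.16 for Krt20. Muc2, Vil1, Krt19, Krt8 and Krt20 were at most 0.233 CPM in spleen CD8 libraries, while Lgals4 was at 11.7 to 14.8 and Epcam at 6.84 to 10.1 CPM there. Phgr1, Car1 and Slc26a3 were each at 0 in at least 1 gut CD8 library. In gut CD8 libraries with anti-IL-2 the epithelial sum was 166, 74.9 and 37.7 CPM, and Cdh1 in the same libraries was at 34.8, 33.5 and 86.8 CPM. In gut CD4 libraries with anti-IL-2 the epithelial sum was 85.3, 47.9 and 43.3 CPM and Cdh1 was at 15, 14.5 and 89 CPM. The part of epithelial RNA in the Cdh1 difference was not tested.

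Itga1 encodes the integrin α1 chain (CD49a), which pairs with β1 to bind collagen and laminin. It lies on chromosome 13 (114953096 to 115101964, minus strand), and an annotated gene on the same strand, Gm49395, shares exon bases with it and has no row of its own. In spleen CD4 cells Itga1 was at 94, 107 and 19.9 CPM with IgG and at 20.05, 19.2 and 70.4 CPM with anti-IL-2. These libraries fell into a low set near 20 CPM and a high set of 70.4 CPM and more, and batch 190306 had its labelled treatments the other way round from the first 2 batches. In gut CD4 cells it was at 178 and 64.3 CPM with IgG and at 116, 87 and 122 CPM with anti-IL-2, overlapping the high spleen libraries. Spleen CD8 cells showed the same order, with 145, 176 and 42.3 CPM under IgG and 59.7, 48.9 and 117 CPM under anti-IL-2. Gut CD8 cells held 329.5 and 196 CPM with IgG and 234, 214 and 265 CPM with anti-IL-2, all above the spleen CD8 libraries. Within pairs Itga1 was higher in gut in 5 of 5 in each cell type, with a log2 fold change of 1.54 (SE 0.31, adjusted p = 0.00326) in CD4 cells by edgeR. In CD8 cells edgeR gave a log2 fold change of 1.67 (SE 0.30, adjusted p = 0.00192). With the IgG pairs alone the call was lost in both cell types (edgeR adjusted p = 0.103 and 0.0559), and without the pairing it was lost in CD4 cells (adjusted p = 0.0875).

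Cd69 encodes the lectin-like surface protein that removes S1PR1 and is also an early marker of T cell activation, and it lies on chromosome 6 (129267325 to 129275436, minus strand). Spleen CD4 cells held 216, 112 and 77.7 CPM with IgG and 162, 163 and 106 CPM with anti-IL-2. Gut CD4 cells held 809 and 497 CPM with IgG and 441, 521 and 227 CPM with anti-IL-2. The groups did not overlap, although the highest spleen library came close to the lowest gut library, the one labelled anti-IL-2 in batch 190306. Spleen CD8 cells held 96.2, 40.7 and 36.4 CPM with IgG and 70.5, 93 and 50.5 CPM with anti-IL-2. Gut CD8 cells held 513 and 358 CPM with IgG and 300.4, 389.6 and 110.4 CPM with anti-IL-2, and again the anti-IL-2 library of batch 190306 was the lowest gut library and came close to the spleen libraries. Cd69 rose in gut with a log2 fold change of 1.95 (SE 0.39, adjusted p = 0.00347) in CD4 cells by edgeR. In CD8 cells the edgeR fit gave a log2 fold change of 2.44 (SE 0.41, adjusted p = 0.00137), and 5 of 5 pairs were higher in gut in each cell type.

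Rgs1 and Rgs2 encode regulators of G protein signalling, which speed up the shut-off of the G proteins behind chemokine receptors, and they lie close together on the minus strand of chromosome 1 (Rgs1 144242296 to 144249242, Rgs2 143999338 to 144004161). In spleen CD4 cells Rgs1 was at 95.2, 29.7 and 18.5 CPM with IgG and at 49, 51.1 and 37.8 CPM with anti-IL-2. In gut CD4 cells it was at 656 and 341 CPM with IgG and at 515, 615 and 222 CPM with anti-IL-2. The spleen libraries differed widely among themselves, yet none reached a gut library. In spleen CD8 cells Rgs1 was at 96.1, 22.9 and 16.5 CPM with IgG and at 37.8, 53.4 and 46.9 CPM with anti-IL-2. In gut CD8 cells it was at 425 and 424 CPM with IgG and at 441, 592 and 211 CPM with anti-IL-2. The lowest gut library was in both cell types the one labelled anti-IL-2 in batch 190306. Rgs1 rose in gut by nearly the same amount in both cell types, with log2 fold changes of 3.63 (SE 0.39, edgeR adjusted p = 8.21e-05) and 3.6 (SE 0.39, edgeR adjusted p = 0.000107).

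Rgs2 ranged over 8.54 to 37.9 CPM in spleen CD4, 32.4 to 116 CPM in gut CD4, 7.92 to 33.2 CPM in spleen CD8 and 24.8 to 86.9 CPM in gut CD8 libraries, so the tissues overlapped in both cell types. It was higher in gut in 5 of 5 pairs of each cell type, with a log2 fold change of 2.09 (SE 0.46, adjusted p = 0.00523) in CD4 cells by edgeR. In CD8 cells edgeR gave a log2 fold change of 1.85 (SE 0.46, adjusted p = 0.0104). Without batch 190306 the values were 2.10 and 2.0 and no longer passed (edgeR adjusted p = 0.0535 and 0.0678). For Cd69, Rgs1 and Rgs2 both IgG pairs held larger differences than each of the 3 anti-IL-2 pairs, as the plot of paired differences shows.

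Cxcr6 encodes the receptor for the membrane-bound chemokine CXCL16 and lies on chromosome 9 (123806475 to 123811760, plus strand). It was already high in spleen and changed least. Spleen CD4 libraries held 193 to 549.6 CPM and gut CD4 libraries 433 to 553 CPM. Spleen CD8 libraries held 228 to 475 CPM and gut CD8 libraries 383 to 566 CPM. The ranges overlapped in both cell types, and the lowest spleen library was in each the one labelled IgG in batch 190306. Within pairs Cxcr6 was higher in gut in 4 of 5 for CD4 cells, with a log2 fold change of 0.69 (SE 0.16, adjusted p = 0.00492) by edgeR. In CD8 cells it was higher in 5 of 5 pairs, with a log2 fold change of 0.48 (SE 0.15, adjusted p = 0.0279) by edgeR. This call did not hold without batch 190306 (adjusted p = 0.0585 in CD4 and 0.197 in CD8 cells, edgeR), without the pairing (adjusted p = 0.0939 and 0.198), or, in CD8 cells, without any 1 of 4 of the 5 gut libraries (adjusted p = 0.0613 to 0.112).

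P2rx7 encodes a cation channel opened by extracellular ATP and NAD-dependent modification, which can kill T cells and is also linked to the upkeep of resident memory cells. It lies on chromosome 5 (122643911 to 122691432, plus strand), where an annotated microRNA, Mir8115, shares exon bases on the same strand and has no row of its own. Spleen CD4 cells held 81.1, 70.2 and 120.1 CPM with IgG and 118, 122 and 87 CPM with anti-IL-2. Gut CD4 cells held 624 and 345 CPM with IgG and 533, 419.9 and 483 CPM with anti-IL-2. The gut CD4 libraries were all well above the spleen CD4 libraries. Spleen CD8 cells held 3.86, 4.32 and 17.2 CPM with IgG and 12.9, 23.9 and 2.56 CPM with anti-IL-2. Gut CD8 cells held 82.4 and 109 CPM with IgG and 161, 154 and 84.7 CPM with anti-IL-2. No spleen CD8 library came near a gut CD8 library, and the range of gut CD8 cells overlapped that of spleen CD4 cells. P2rx7 rose in gut with a log2 fold change of 2.22 (SE 0.32, adjusted p = 0.000517) in CD4 cells by edgeR. In CD8 cells the edgeR fit gave a log2 fold change of 3.48 (SE 0.37, adjusted p = 8.93e-05).

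**Figure D2:**
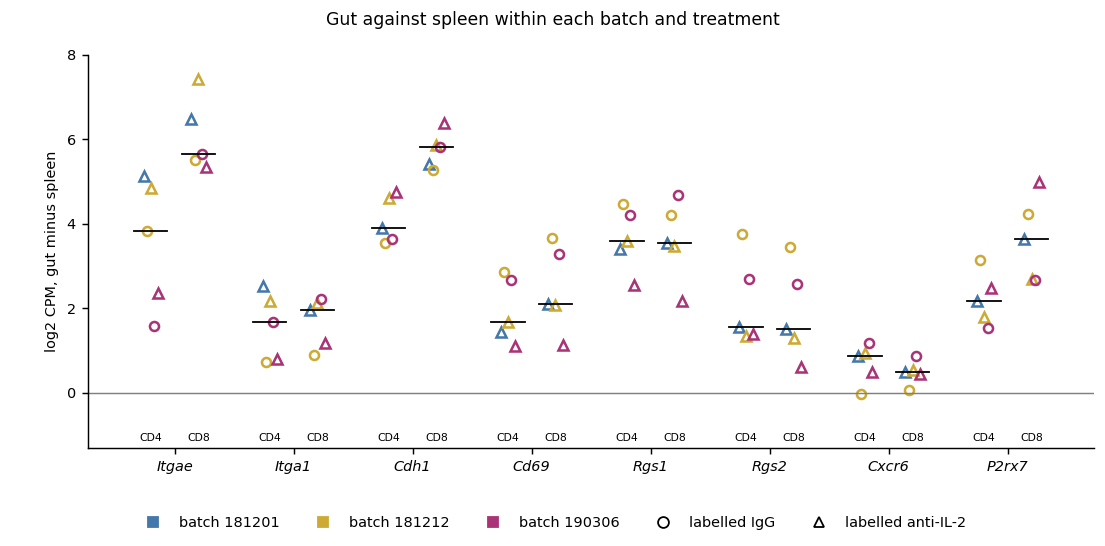
Log2 CPM in gut minus spleen for each of the 5 pairs of libraries of 1 batch and labelled treatment (circles IgG, triangles anti-IL-2), for CD4 and CD8 cells of each gene, with a line at the median. All pairs lie above 0 except 1 CD4 pair of Cxcr6, and Cdh1 and Itgae reach larger differences in CD8 than in CD4 cells.

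Whether the tissue difference itself differed between the cell types was tested with an interaction term. The fit paired gut with spleen within a cell type. It did not pair CD4 with CD8 libraries of the same batch and treatment, so the SE and p-values of this test leave that pairing out. Of the 8 genes 1 passed, where 2.17% of all genes did. Cdh1 rose more in CD8 than in CD4 cells, by 1.75 on the log2 scale (SE 0.31, edgeR adjusted p = 0.0146). That call was lost with the anti-IL-2 or the IgG pairs alone, without the pairing and without batch 190306 (difference 1.66, adjusted p = 0.122) and rests on 8 to 20 counts per spleen CD8 library. The estimate for Itgae was larger, 2.70 (SE 0.82), but did not pass with edgeR (adjusted p = 0.136), while DESeq2 gave an adjusted p of 0.0166. For P2rx7 the difference was 1.27 (SE 0.47, edgeR adjusted p = 0.215). The other 5 had estimates from -0.25 for Rgs2 to 0.50 for Cd69, each smaller than its SE. With the anti-IL-2 pairs alone 0 of 8 genes passed, where 58 of 12290 tested genes did.

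CD4 and CD8 cells differed in most of these genes within a tissue, as did most genes of the table. In spleen 5 of 8 passed, where 63.1% of all genes did, and in gut 6 of 8 passed, where 52.4% did, so the share of members was near that of the table. Without the pairing of libraries 3 members were called in spleen and 1 in gut, where 4308 and 2497 of all 12841 genes were called. P2rx7 was higher in CD4 cells in both tissues, with log2 differences of 3.37 in spleen (SE 0.35, edgeR adjusted p = 1.84e-05) and 2.05 in gut (SE 0.31, edgeR adjusted p = 0.000403). Cd69 was also higher in CD4 cells in both, by 1.13 in spleen (edgeR adjusted p = 3.26e-07) and 0.63 in gut (edgeR adjusted p = 0.000107). Itga1 went the other way in both, at -0.97 in spleen (edgeR adjusted p = 0.000111) and -1.17 in gut (edgeR adjusted p = 4.74e-05), and was lower in CD4 cells in 6 of 6 spleen and 5 of 5 gut pairs.

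Itgae and Cdh1 changed their order between the tissues. Itgae was higher in CD4 than CD8 cells in spleen, by 1.86 (SE 0.36, edgeR adjusted p = 0.00117, 6 of 6 pairs). In gut it was lower in CD4 cells, at -0.62 (SE 0.20, edgeR adjusted p = 0.028), in 4 of 5 pairs. The gut call was lost with DESeq2 (adjusted p = 0.0628), without batch 190306 (adjusted p = 0.171) and without any 1 of 4 of the 5 gut CD4 libraries (edgeR adjusted p = 0.0639 to 0.0941). Cdh1 was higher in CD4 cells in spleen, by 1.25 (SE 0.42, edgeR adjusted p = 0.0228), and lower in gut, at -0.80 (SE 0.18, edgeR adjusted p = 0.00383). The spleen value of Cdh1 did not pass with limma voom (adjusted p = 0.187), nor with edgeR without the CD4 spleen anti-IL-2 library of batch 190306 (0.0949) or the CD4 spleen IgG library of batch 181201 (0.0673).

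Rgs2 was higher in CD4 cells in gut, by 0.37 (SE 0.08, edgeR adjusted p = 0.00149), and its spleen value was 0.14 (edgeR adjusted p = 0.171). Without batch 190306 the spleen value was 0.28 and passed (edgeR adjusted p = 0.00451). Rgs1 and Cxcr6 did not pass in either tissue, with values of 0.072 and 0.13 for Rgs1 and of -0.046 and 0.11 for Cxcr6 in spleen and gut.

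**Figure D3:**
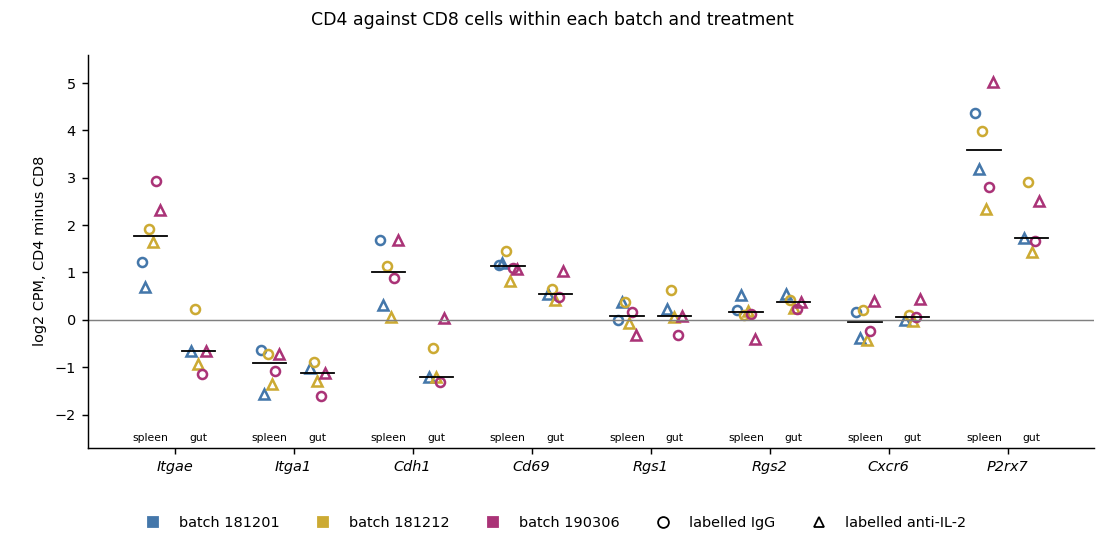
Log2 CPM in CD4 minus CD8 cells for each pair of libraries of 1 tissue, batch and labelled treatment (6 in spleen, 5 in gut), with a line at the median. P2rx7 and Cd69 lie above 0 in every pair and Itga1 below 0 in every pair, while Itgae and Cdh1 are above 0 in all spleen pairs and below 0 in 4 of 5 gut pairs.

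Levels were also divided by the length of all annotated exons of a gene, merged over its transcripts (GENCODE M21, 1.931 kb for Cxcr6 to 18.599 kb for Itga1). This merged length can exceed that of the RNA in the cells, which lowers the value per kilobase. For Rgs1 it was 6.947 kb, the whole span of the gene, and for Cd69 it was 6.509 kb. The order of genes below therefore holds for this divisor only. In gut CD4 cells the mean level per kilobase was highest for Cxcr6, at 266 ± 24 CPM per kb (SD, n = 5). P2rx7 at 80.6 ± 17.8, Cd69 at 76.6 ± 32 and Rgs1 at 67.6 ± 26.5 CPM per kb came next. Itgae at 27.9 ± 18.1 and Rgs2 at 21.7 ± 8.61 CPM per kb followed, and Cdh1 at 7.09 ± 7.03 and Itga1 at 6.11 ± 2.31 CPM per kb were the lowest. Each gene after Cxcr6 overlapped in range with its neighbours in this order. In gut CD8 cells the order of means was Cxcr6 (248 ± 40.4), Rgs1 (60.2 ± 19.5), Cd69 (51.3 ± 22.6), Itgae (43.1 ± 30.8), P2rx7 (19.8 ± 6.27), Rgs2 (16.9 ± 6.87), Itga1 (13.3 ± 2.83) and Cdh1 (10.3 ± 4.91 CPM per kb), each with a range that overlapped that of its neighbours except for Cxcr6. In spleen Cxcr6 was the highest too, at 183 ± 65.1 CPM per kb in CD4 and 184 ± 45.6 in CD8 cells (SD, n = 6), and Cdh1 the lowest, at 0.39 ± 0.236 and 0.162 ± 0.0442 CPM per kb.

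Treatment was compared in each of the 4 populations with batch as a term. With all batches 0 of 8 genes passed in spleen CD4, spleen CD8, gut CD4 and gut CD8 cells, where 0% of all genes were called by edgeR in each population. At an unadjusted p under 0.05 edgeR counted 282, 148, 750 and 953 genes in the same order, and DESeq2 called 0, 0, 8 and 18 genes at its adjusted threshold. Within batches, the differences of Itga1 and Cdh1 had the opposite sign in batch 190306 from the earlier batches in each population. For Cdh1 in spleen CD8 cells they were -0.048, -0.94 and 0.62, and did not differ by batch past the threshold (edgeR adjusted p = 0.105). In spleen CD4 cells the log2 difference of Itga1, labelled anti-IL-2 minus labelled IgG, was -2.22 and -2.48 in the first 2 batches and 1.81 in batch 190306. For Cdh1 in the same cells the differences were -1.42, -2.02 and 1.41. In spleen CD8 cells P2rx7 ran the other way, at 1.71 and 2.44 in the first 2 batches and -2.70 in batch 190306. Its difference between batch 190306 and the other batches, -3.35, did not pass the threshold by edgeR either. These turns followed the batches in which Il2ra turned as well, and whether labels were exchanged in batch 190306 was not tested.

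The difference between batch 190306 and the other batches in the treatment contrast was tested with an interaction term by edgeR. In spleen CD4 cells 3 of 8 genes passed, where 24.2% of all genes did: Itga1 (3.53, adjusted p = 0.000577), Cdh1 (2.80, adjusted p = 0.000167) and Cxcr6 (1.09, adjusted p = 0.0426). In spleen CD8 cells 1 of 8 passed, where 18.6% did, and that was Itga1 (2.79, edgeR adjusted p = 0.00229). In gut CD4 cells 2 of 8 passed, where 21.4% did, and in gut CD8 cells 2 of 8, where 16.7% did, in both cases Itga1 and Cdh1. The estimates were 1.96 and 1.93 for Itga1 (edgeR adjusted p = 0.0116 and 0.0143) and 3.24 and 1.99 for Cdh1 (edgeR adjusted p = 2.48e-06 and 9.08e-05) in gut CD4 and gut CD8 cells.

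Without batch 190306, when each gut group has 1 library with IgG and 2 with anti-IL-2 and the spread is shared over all groups, several members passed. In spleen CD4 cells 3 of 8 passed, where 20.1% of all genes did, and all 3 fell with anti-IL-2. Itga1 gave -2.35 (SE 0.18, edgeR adjusted p = 5.51e-05), Cdh1 -1.76 (adjusted p = 0.000472) and Cxcr6 -0.74 (adjusted p = 5.96e-05). In spleen CD8 cells 2 of 8 passed, where 12.1% did: Itga1 fell (-1.58, edgeR adjusted p = 0.000673) and P2rx7 rose (2.15, edgeR adjusted p = 0.017). In gut CD4 cells 2 of 8 passed, where 11.7% did, with Cdh1 at -0.98 (edgeR adjusted p = 0.00275) and Itga1 at -0.84 (edgeR adjusted p = 0.0288). In gut CD8 cells 1 of 8 passed, where 10.7% did, and Itgae was higher with anti-IL-2 (1.47, edgeR adjusted p = 0.0252). Marker sums of some other cells were also higher in the 2 gut CD8 libraries with anti-IL-2 of that comparison than in the 1 with IgG, while others were lower or level. Epithelial markers summed to 39 CPM with IgG against 166 and 74.9 CPM, fat and pancreas markers to 0.802 against 26.6 and 19.8 CPM, and B and plasma cell markers to 16.9 against 31.4 and 465 CPM. NK and innate lymphoid markers were lower, at 229 CPM with IgG against 123 and 95.3 CPM. Fibroblast and endothelial markers were at 135 against 127 and 105 CPM, and macrophage and dendritic markers at 592 against 595 and 589 CPM. Their part in the Itgae difference was not tested. Cd69, Rgs1 and Rgs2 passed in no population in either setting, and their spleen differences already differed in sign between batches 181201 and 181212.

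**Figure D4:**
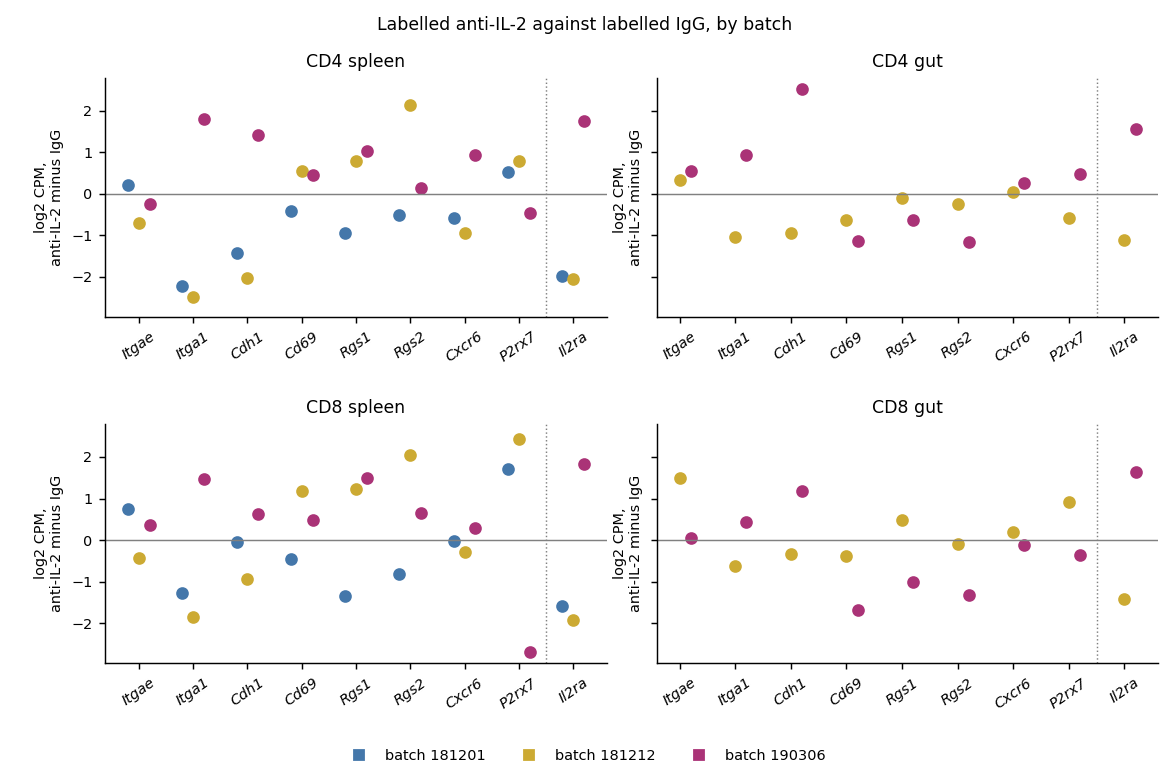
Log2 CPM of the library labelled anti-IL-2 minus that labelled IgG in each batch (colour) for the 8 genes and, right of the dotted line, Il2ra, in 4 populations; gut has no IgG library in batch 181201. Itga1, Cdh1 and Il2ra have the opposite sign in batch 190306 from the earlier batches in each panel.

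The genes also differed in what they varied with. To set tissue and cell type aside, log2 CPM was taken as the deviation from the mean of each cell type and tissue. Correlations were computed over the 22 libraries as a description, since libraries with the same batch label may not be independent. Cd69, Rgs1 and Rgs2 varied together, with r of 0.907 between Cd69 and Rgs2, 0.869 between Rgs1 and Rgs2 and 0.851 between Cd69 and Rgs1. Itga1 varied instead with Cxcr6 (r of 0.697) and Cdh1 (0.652) and opposite to P2rx7 (-0.596). Itgae followed none of them closely, with r between -0.210 and 0.305. Labelled treatment and batch stayed in these deviations, and their part in the correlations was not tested. Over all 22 libraries, where tissue and cell type add to the likeness, the most similar of 9587 genes was Dusp1, a phosphatase of the immediate early response, for both Cd69 (r of 0.971) and Rgs2 (0.949). For Itgae it was Osgin1 (0.964), for Rgs1 Insig1 (0.972), for Itga1 the receptor Gpr55 (0.946), for Cxcr6 Gpr171 (0.905), for Cdh1 Ppp1r3b (0.973) and for P2rx7 Mfsd6 (0.963).

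Other genes of the same biology were read from lists. Beside the counts below, 23.9% of all tested genes were called higher in gut in CD4 and 22.3% in CD8 cells. Of 36 regulators and partners of residence, 26 were higher and 2 lower in gut CD4 cells, with a median log2 fold change of 0.66 against 0.01 over all genes, and 25 were higher and 3 lower in gut CD8 cells, with a median of 0.59. Among listed genes whose mean log2 CPM reached 2, the largest rises in CD4 cells were Osgin1 (4.41), the chemokine gene Xcl1 (3.68), the transcriptional repressor Hic1 (2.82) and the nuclear receptor Nr4a2 (2.76), with edgeR adjusted p-values from 2.94e-07 to 5.9e-05. In CD8 cells Osgin1 (6.90), Hic1 (2.52), the exonuclease gene Isg20 (2.23) and the aryl hydrocarbon receptor Ahr (2.12) led, with edgeR adjusted p-values from 8.79e-08 to 4.82e-05. The integrin chains Itga4 and Itgb1 fell, Itga4 at -1.05 in CD4 and -1.17 in CD8 cells and Itgb1, the partner chain of Itga1, at -1.16 and -0.66. Il2rb was slightly lower in CD8 cells (-0.21, edgeR adjusted p = 0.0253). In the interaction test 4 genes passed, Gpr34 and, above that mean level, Osgin1, Isg20 and Chn2, which rose more in CD8 than in CD4 cells, with interaction values of 2.49, 1.36 and 0.99 (edgeR adjusted p from 0.0146 to 0.0279).

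Genes of tissue exit and circulation mostly went the other way. Of 20, 12 were lower and 3 higher in gut CD4 cells (median -0.47), and 15 were lower and 1 higher in gut CD8 cells (median -0.76), where 20.3% of all tested genes were called lower in gut in each cell type. Ccr7, a chemokine receptor of lymph node entry, fell by 2.08 and 1.34 on the log2 scale in CD4 and CD8 cells, and Slamf6 fell by 1.78 and 1.20. Tcf7, the transcription factor of naive and stem-like T cells, fell by 1.55 in CD4 cells, and Cx3cr1 fell by 1.16 in CD8 cells. S1pr1, the exit receptor opposed by Cd69, fell in CD4 cells (-0.71, edgeR adjusted p = 0.000947) and in CD8 cells (-0.73, edgeR adjusted p = 0.000902). It is named here outside the rule for listed genes, after its values were seen. Klrg1, a receptor of terminal effector cells, rose in gut CD4 cells (0.99) and fell in gut CD8 cells (-0.78), a difference of -1.77 that passed (edgeR adjusted p = 0.013). In CD4 cells Samd3 (0.82) and Tbx21, which encodes T-bet (0.26), were the other genes that rose.

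Of 11 TGF-beta pathway genes, 5 were higher and 1 lower in gut CD4 cells and 5 higher and 3 lower in gut CD8 cells (median log2 fold changes 0.26 and 0.10). Of all tested genes 23.9% in CD4 and 22.3% in CD8 cells were called higher, and 20.3% in each were called lower. Among the feedback inhibitors, Skil rose by 1.89 and 1.90, Smad7 by 1.58 and 1.26 and Ski by 0.97 and 1.82 on the log2 scale in CD4 and CD8 cells. Tgfb1 rose in CD4 cells (0.80, edgeR adjusted p = 8.4e-07), and Smad3 (-0.50), Tgfbr1 (-0.39) and Smad4 (-0.23) fell in CD8 cells. Among the 5 tested RGS genes other than Rgs1 and Rgs2, 3 rose in CD4 and 4 in CD8 cells and none fell by edgeR. Rgs16 rose most, by 2.36 (edgeR adjusted p = 2.49e-05) and 2.43 (edgeR adjusted p = 2.37e-05) in CD4 and CD8 cells, and Rgs3 rose by 0.83 and 0.86.

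Immediate early and stress genes, which stimulation and tissue handling can induce, were read because Cd69, Rgs1 and Rgs2 are also early activation genes. Of 25, 21 were higher and 0 lower in gut in each cell type by edgeR (median log2 fold changes 1.16 in CD4 and 1.28 in CD8 cells). Fosb rose by 4.17 and 4.04, Jun by 2.75 and 3.02 and Fos by 2.63 and 2.77 on the log2 scale in CD4 and CD8 cells. Their summed level was 2526 to 4344 CPM in spleen CD4 and 6289 to 12904 CPM in gut CD4 libraries, and 1912 to 2941 CPM in spleen CD8 and 4481 to 10217 CPM in gut CD8 libraries. The gut libraries with IgG had the highest sums (12904 and 12411 CPM in CD4 and 10217 and 9366 CPM in CD8 cells), and the gut libraries labelled anti-IL-2 in batch 190306, in which Cd69, Rgs1 and Rgs2 were lowest, had the lowest sums of their tissue (6289 and 4481 CPM). The part of this response in the gut levels of Cd69, Rgs1 and Rgs2 was not tested.

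**Figure D5:**
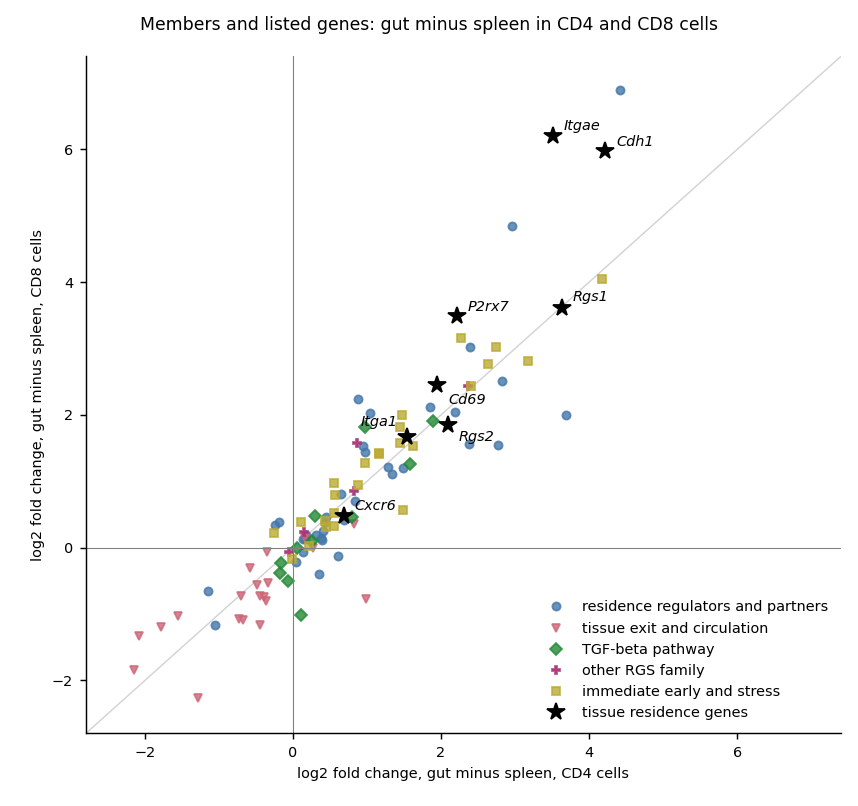
Fitted log2 fold change in gut minus spleen in CD4 cells (x axis) and CD8 cells (y axis) for the 8 genes (stars) and the genes of 5 lists, with a grey line where both are equal. The 8 genes all lie in the upper right, with Itgae, Cdh1 and P2rx7 farthest above the line, and most genes of tissue exit and circulation lie in the lower left.

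Markers of other cells were read by tissue. Macrophage and dendritic markers summed to 102 to 348 CPM in spleen CD4 and 149 to 214 CPM in gut CD4 libraries, and to 377 to 550 CPM in spleen CD8 and 589 to 698 CPM in gut CD8 libraries, of which Itgax, also expressed by activated CD8 cells, made up 432 to 617 CPM in gut CD8 libraries. Other markers of this list reached 70.2 CPM (Cd68), 48.9 CPM (Cd74) and 28.3 CPM (Lyz2) in gut CD8 libraries, against at most 62.1, 21.9 and 3.82 CPM in spleen CD8 libraries, and C1qa reached 6.68 against 8.25 CPM. Fat and pancreas markers reached 22.9 CPM in gut CD4 and 26.6 CPM in gut CD8 libraries, against at most 0.798 and 1.81 CPM in spleen. B and plasma cell markers reached 203 CPM in 1 gut CD4 and 465 CPM in 1 gut CD8 library, against at most 10.4 CPM in spleen, and nearly all of it was Jchain (at most 202 and 463 CPM). Their part in the tissue differences of the 8 genes was not tested.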

How the data were processed

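The authors deposited 1 table of raw counts of reads per gene for the 22 libraries of RNA from sorted T cells, prepared with a stranded mRNA kit per the labels. TopHat2, HTSeq 0.9.1 and the mouse build mm10 are named in the submitters' processing notes, and the strand setting of the counting is not given in the sources used here. Groups were taken from the tissue, cell type and treatment fields. Counts were analysed with edgeR 4.0.16 in R 4.3.3 (TMM scaling, robust quasi-likelihood test, Benjamini-Hochberg adjustment at 0.05), with edgeR's filter on low counts, which kept 12841 of 24091 genes. CPM are per TMM-scaled library size, log2 CPM use a prior count of 2, and SE is the log2 fold change divided by the root of F.

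Tissues, and the tissue difference between cell types, were compared with a block for cell type, batch and treatment. Cell types were compared with a block for tissue, batch and treatment, and treatments with batch as a term. Deviations from group means within a block had r of 0.516 to 0.771 over 10 gut and spleen pairs. Over 11 CD4 and CD8 pairs r was 0.651 to 0.832, and the batch field gives the pairing. Both gut pairs with IgG gave the same r of 0.743, since deviations in a group of 2 libraries mirror each other. Libraries of different blocks were not compared, so these values do not test the pairing. With the block 5685 genes differed between gut and spleen in CD4 and 5480 in CD8 cells, and without it 2706 and 2605. Alternatives were DESeq2 1.42.0, limma voom 3.58.1, no TMM scaling, no filter, batch as an additive term, pairs of 1 treatment alone, leaving out batch 190306 and leaving out each library. The fitting was tested on simulated data. Gene positions and exon lengths come from GENCODE M21 (GRCm38). Intervals and tests cover counting and library spread only.

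The genes and lists were chosen with earlier results of these data known. Genes named from a list are the up to 4 per direction with the largest change among those that passed at mean log2 CPM 2 or higher, and for each member the 1 most correlated other gene. One gene that this rule names is not reported here. S1pr1 and Gpr34 were named after their values were seen.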

Additional observations from a re-analysis of the deposited data

Results flagged for a closer look

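In 9 cases a difference between groups passed its own test by edgeR, where each test was read for all 8 measured genes. The tissue difference of Cdh1 was larger in CD8 than in CD4 cells by 1.75 on the log2 scale, in a test that 2.17% of all genes passed. The labelled treatment contrast differed between batch 190306 and the other batches for Itga1 in all 4 populations, by 3.53 and 2.79 in CD4 and CD8 cells of the spleen and by 1.96 and 1.93 in those of the gut. For Cdh1 it differed by 2.80 in spleen CD4, 3.24 in gut CD4 and 1.99 in gut CD8 cells. For Cxcr6 it differed by 1.09 in spleen CD4 cells. In each of these 8 cases the labelled contrast was higher in batch 190306. Such a batch difference was common over the whole table. It was called for 24.2% (CD4) and 18.6% (CD8) of all genes in spleen cells. For gut cells the shares were 21.4% (CD4) and 16.7% (CD8). Whether the measured genes were called more often than other genes was not tested.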

How the results depend on the processing

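Across the alternatives 0 of the gut and spleen differences of single members changed sign, and 7 calls in CD4 and 11 in CD8 cells were lost, with 105 and 101 kept; the cause was not tested for any change given here. Genes called between gut and spleen in CD4 and CD8 cells numbered 3645 and 3335 with anti-IL-2 pairs alone, 1554 and 1637 with IgG pairs alone, 2706 and 2605 without the replicate block, and 3747 and 3235 without batch 190306. Without TMM scaling, calls higher and lower in gut went from 3074 and 2611 to 2005 and 3889 in CD4 and from 2867 and 2613 to 2347 and 3247 in CD8 cells, and those of the interaction from 123 and 156 to 189 and 98. The interaction called 58 genes with anti-IL-2 pairs alone, 42 with additive batch, 517 with DESeq2, 11 without the replicate block, 15 without batch 190306 and 0 with IgG pairs alone (edgeR, 723 at an unadjusted p under 0.05). Members called were 2 with DESeq2 and 0 in the other 5 of these settings, and leaving out 1 library gave 117 to 488 genes. CD4 against CD8 in gut called 4091 genes with additive batch, 3868 with IgG pairs alone and 2497 without the replicate block, with 1 member called under the first and the last of these. In spleen 4308 genes were called without the replicate block, and 3 members with that setting or additive batch. Treatment called 8 genes in gut CD4 and 18 in gut CD8 cells with DESeq2. Without batch 190306 it called 2627 genes and 3 members in spleen CD4 cells, 1587 and 2 in spleen CD8 cells, 1533 and 2 in gut CD4 cells and 1403 and 1 in gut CD8 cells, and leaving out 1 library gave 0 to 2 genes in gut CD4 cells.

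Signs changed as follows. Cdh1 in the gut CD4 treatment contrast was -0.98 without batch 190306. Cxcr6 in spleen CD4 against CD8 was 0.055 with IgG pairs alone and -0.13 to 0.031 when 1 library was left out. In the interaction Itga1 was -0.036 with anti-IL-2 pairs alone, -0.10 without batch 190306 and -0.10 to 0.36 without 1 library. Rgs1 was 0.11 with IgG pairs alone, 0.024 without TMM scaling and -0.30 to 0.33 without 1 library, and Rgs2 was -0.59 to 0.11 without 1 library. In the treatment contrasts, leaving out 1 library gave -0.40 to 1.72 for Cdh1 and -0.69 to 0.76 for Itga1 in gut CD4 cells, -1.25 to 0.032 for Cdh1 and -0.54 to 0.042 for Cxcr6 in spleen CD4 cells, and -0.27 to 1.71 for P2rx7 in spleen CD8 cells. Treatment alternatives of single members were followed only where a member was called in at least 1 setting. Spleen Cdh1, at 8 to 73 counts a library, had the lowest counts of the 8 genes and so the most counting noise for its level.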
